A study of Mus musculus with 22 samples.

Results

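The liver is a main site of cholesterol and fatty acid synthesis, and 31 genes of these routes were followed here across 22 mouse livers, out of 18194 genes measured on the arrays. The genes were a named list, split into a sterol arm of 16 genes and a fatty acid arm of 15, and the arms were read separately. Each gene was represented by 1 probe set, the one with the highest mean of log2(signal + 16) over all 22 arrays. The choice of genes used no measured value of these livers, but it was made with earlier results of the same data known.

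Each array held the RNA of 1 liver. The younger mice, of 5 weeks, were 4 of wild type (WT), 4 Trim24-/- and 4 Trim24-/- Rara+/-, and the older, of 14 weeks, were 5 WT and 5 Trim24-/-. Trim24, a tripartite motif protein that binds nuclear receptors and alters transcription, was inactivated by gene disruption, and Rara encodes the retinoic acid receptor alpha, of which the compound mutants kept 1 intact allele. All groups came from crosses on a hybrid C57BL/6 and 129/Sv background. There was no group with 1 Rara allele and intact Trim24, so the Rara allele could be compared only among mice without Trim24, and no compound mutants of 14 weeks were analysed here. Livers are named as in their labels, and values run in this order: liver_2WT, liver_44WT, liver_45WT and liver_90WT for WT of 5 weeks, liver_1KO, liver_6KO, liver_8KO and liver_37KO for Trim24-/- of 5 weeks, and liver_54R, liver_66R, liver_73R and liver_82R for the compound mutants. At 14 weeks the order is liver_616WT, liver_611WT, liver_613WT, liver_464WT and liver_393WT for WT, and liver_648M, liver_466M, liver_463M, liver_411M and liver_395M for Trim24-/-.

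Cholesterol is built from acetyl-CoA through mevalonate, isoprenoids, squalene and lanosterol, while fatty acids are built from citrate-derived acetyl-CoA and malonyl-CoA and are then elongated, desaturated and joined to glycerol. Sterol regulatory element-binding proteins (SREBPs) drive both routes: SREBP-2, from Srebf2, acts mainly on sterol genes, and SREBP-1c, from Srebf1, mainly on fatty acid genes. When membrane sterols are plentiful, INSIG proteins hold the SREBPs and their escort SCAP in the endoplasmic reticulum, so sterol genes fall together; insulin and liver X receptors raise Srebf1, and glucose acts through ChREBP, from Mlxipl. SREBPs bind DNA weakly and are known to work beside the factors NF-Y and Sp1 at promoters.

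Promoter sequence was therefore read for the members, as the 250 bases before each annotated start (RefSeq, GRCm38.p6). Of the sterol arm 13 of 16 genes were matched, and of the fatty acid arm 13 of 15; Fdft1, Fdps, Sqle, Dgat2 and Scd1 were not. The CCAAT box that NF-Y binds was present on either strand in 13 of 13 matched sterol genes and 10 of 13 matched fatty acid genes, against 37.5% of 27025 genes with a promoter in the same table. Counted over windows, since a gene can have several starts, the share was 81.2% of 16 sterol windows, 57.9% of 19 fatty acid windows and 33.8% of all 32851. GGGCGG, the box bound by Sp1, was found in 12 of 13 and 6 of 13 genes, against 35.4% of all genes. TCACNCCAC, a core form of the sterol regulatory element, occurred in 1 of 13 genes of each arm (Hmgcs1 and Mlxipl), against 1.2% of all genes. The E-box CACGTG occurred in 3 of 13 and 2 of 13, against 6.9%. A match is a description of letters, not a binding site, and matches on the 2 strands can share bases, as in Fasn.

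Windows are shown for sterol genes that were low together in single livers, and for Fasn, which was not, with CCAAT (or its complement ATTGG) and TCACNCCAC in capitals, 5′ to 3′ on the gene's strand. They lie at chr13:119690101-119690350, plus strand (Hmgcs1), chr13:8885356-8885605, plus strand (Idi1), chr5:114444019-114444268, plus strand (Mvk), chr8:64733579-64733828, minus strand (Msmo1) and chr11:120824548-120824797, minus strand (Fasn).
Hmgcs1: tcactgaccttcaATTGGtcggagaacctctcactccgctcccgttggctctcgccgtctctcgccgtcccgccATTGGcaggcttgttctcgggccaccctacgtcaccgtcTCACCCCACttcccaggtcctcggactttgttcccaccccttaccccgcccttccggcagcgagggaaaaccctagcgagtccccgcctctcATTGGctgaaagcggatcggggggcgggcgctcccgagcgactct
Idi1: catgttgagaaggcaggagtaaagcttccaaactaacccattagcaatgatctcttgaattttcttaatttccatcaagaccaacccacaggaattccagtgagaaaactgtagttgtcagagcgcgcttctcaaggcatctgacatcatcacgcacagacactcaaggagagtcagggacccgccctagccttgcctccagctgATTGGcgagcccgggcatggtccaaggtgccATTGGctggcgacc
Mvk: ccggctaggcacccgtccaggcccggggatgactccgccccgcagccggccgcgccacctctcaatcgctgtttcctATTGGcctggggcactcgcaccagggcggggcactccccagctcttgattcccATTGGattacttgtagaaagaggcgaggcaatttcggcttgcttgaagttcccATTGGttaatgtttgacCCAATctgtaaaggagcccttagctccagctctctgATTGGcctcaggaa
Msmo1: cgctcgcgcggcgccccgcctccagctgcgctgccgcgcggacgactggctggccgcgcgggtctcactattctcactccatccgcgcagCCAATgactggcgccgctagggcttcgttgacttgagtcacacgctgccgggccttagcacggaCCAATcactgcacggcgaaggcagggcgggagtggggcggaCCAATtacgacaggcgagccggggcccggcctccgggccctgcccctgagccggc
Fasn: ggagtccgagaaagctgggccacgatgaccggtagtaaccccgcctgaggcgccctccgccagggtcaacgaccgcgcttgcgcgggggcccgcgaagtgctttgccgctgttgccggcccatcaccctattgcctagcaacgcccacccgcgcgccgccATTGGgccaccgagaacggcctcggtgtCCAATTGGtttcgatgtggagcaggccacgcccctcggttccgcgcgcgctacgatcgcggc
Mvk held 5 CCAAT matches in these 250 bases, Hmgcs1, Msmo1 and Fasn 3 each and Idi1 2.

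Some features of the whole series bear on every value here. The deposited signals had been scaled to 1 common level, and the median signal per array was 12.6 to 16.1 at 5 weeks and 19.7 to 25.9 at 14 weeks. Trim24 signal was 191 to 459 in WT and 305 to 488 in Trim24-/- livers of 5 weeks, and 143 to 205 and 185 to 336 at 14 weeks. The position of its probes relative to the disrupted part of the gene was not given in the sources used here; this signal therefore does not check the labels, on which the directions below rest. Between the WT ages Trim24 fell by 0.80 and Rara rose by 1.23 in limma (adjusted p = 0.00401 and 0.00153). Rara signal was at most 61.7 on any array and its ranges overlapped between genotypes at each age. Every liver of 5 weeks had a high signal of Xist, the RNA of the silenced X chromosome (948 or more), and every liver of 14 weeks a low one (44.5 or less), with the Y-linked Eif2s3y the other way round, so age and this sex pattern cannot be told apart. Hepatocyte markers were bright on all arrays (Alb from 7059 to 12761), whereas the adipocyte markers Adipoq and Lep did not exceed 39.0 and 10.9. In a whole liver, fewer cells of a type and less RNA per cell cannot be told apart. The p-values below set each difference against the spread between these animals, pooled over the groups in a fit and moderated over all genes.

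Single livers stood apart. Over the 8334 genes above a log2 level of 6, liver_90WT correlated at 0.979 with liver_6KO but at only 0.952 to 0.954 with the other WT livers of 5 weeks. liver_6KO correlated at 0.954 to 0.959 with the other Trim24-/- livers of its age. Trim24-/- Rara+/- liver_54R, liver_66R and liver_82R resembled each other closely (0.987 to 0.992), as did Trim24-/- liver_1KO and liver_8KO (0.988). Results for the arms are therefore given with and without liver_90WT and liver_6KO, a choice made after the arrays were seen.

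The sterol arm was low as a block in 1 liver of several groups. liver_90WT had the lowest signal of its group for 16 of 16 sterol genes, where it was lowest for 29.2% of all genes, and liver_6KO was lowest in its group for 16 of 16 as well, against 27.9% of all genes. At 14 weeks liver_393WT was lowest for 16 of 16 (21.6% of all genes), and liver_395M for 10 of 16 (19.1%). The Trim24-/- Rara+/- group held no such liver. In liver_90WT the sterol genes stood at a median of 26.0% of the mean of the other 3 WT livers, from 12.4% for Cyp51 to 80.0% for Insig1. In liver_6KO the median was 26.3%, from 9.30% for Sqle to 57.4% for Insig1. At 14 weeks the medians were 54.4% in liver_393WT and 65.4% in liver_395M.

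**Figure D1:**
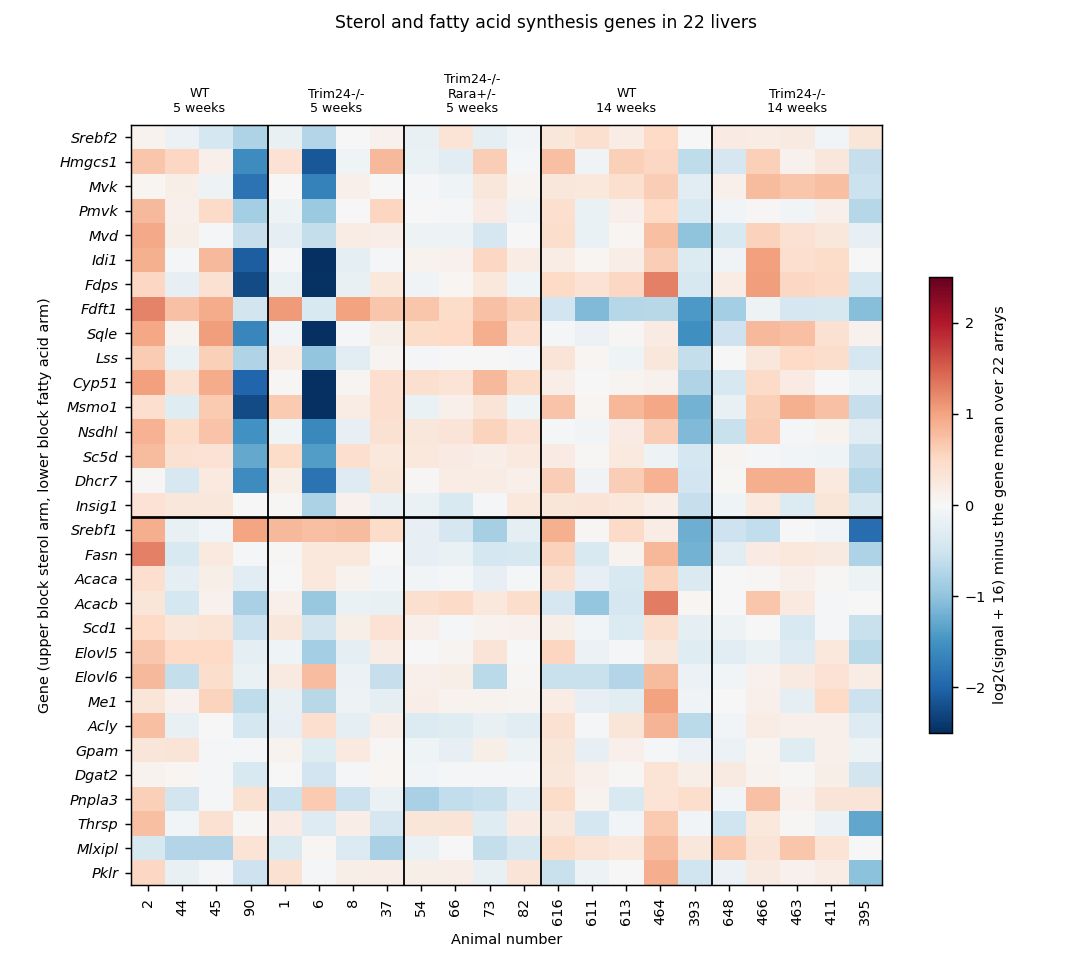
Colour shows log2(signal + 16) of each gene (rows, sterol arm above the line and fatty acid arm below) in each of 22 livers (columns, by group and animal number) minus that gene's mean over all 22, and values beyond the ends of the scale take the end colour. Most of the sterol block is blue (below the mean) in liver_90WT and liver_6KO of 5 weeks, while the fatty acid block of the same columns holds both colours.

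The pattern ran through the whole route. At its entry, Hmgcs1, which makes HMG-CoA from acetyl units, read 2319, 2045, 1562 and 466.4 in WT and 1842, 314, 1318 and 2522 in Trim24-/- livers. It read 1272, 1180.2, 2182 and 1365 in the compound mutants. liver_90WT and liver_6KO lay far below all others of 5 weeks, and without them the 3 groups overlapped.

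The mevalonate genes followed. Mvk, mevalonate kinase, read 94.4, 102, 81.5 and 13.9 in WT, 90.7, 17.3, 101 and 90.3 in Trim24-/- and 89.3, 82.8, 115 and 95.9 in compound mutant livers of 5 weeks. In liver_90WT and liver_6KO Mvk was near the pseudocount of 16, so its log2 difference understates the fall in signal. Pmvk and Mvd, the next kinase and the decarboxylase, were at 35.9% and 42.0% of the other WT livers in liver_90WT, and at 43.1% and 55.2% of the other Trim24-/- livers in liver_6KO.

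Among the isoprenoid and squalene steps, Idi1, Fdps and Sqle were further below the other livers of the group than Fdft1 and Lss, in liver_90WT and in liver_6KO. Idi1, the isopentenyl diphosphate isomerase, read 1387, 721, 1321 and 167 in WT and 729, 101, 629 and 725 in Trim24-/- livers of 5 weeks. Fdps, farnesyl diphosphate synthase, read 2123, 1297, 1945 and 301 in WT and 1329.6, 257, 1312 and 1785 in Trim24-/- livers. Sqle, the squalene epoxidase and a rate-limiting step after squalene, read 596, 317, 629 and 85.0 in WT, 284, 27.9, 286 and 331 in Trim24-/- and 417, 429.7, 574 and 401 in compound mutant livers. Each time the low reading was liver_90WT or liver_6KO. Fdft1, squalene synthase, and Lss, which closes squalene oxide to lanosterol, were at 36.0% and 42.1% in liver_90WT and at 39.6% and 46.7% in liver_6KO.

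The steps from lanosterol to cholesterol showed it too. Cyp51, the lanosterol demethylase, was at 12.4% of the other WT livers in liver_90WT and 10.8% of the other Trim24-/- livers in liver_6KO, and Msmo1, the methylsterol oxidase, at 16.2% and 9.51%. Nsdhl, the sterol dehydrogenase that acts with it, was at 20.2% and 29.8%. Sc5d and Dhcr7, which complete the last double-bond changes, were between 23.7% and 31.1% in both animals.

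The regulators were less low than most of the enzymes. Srebf2 read 116, 95.4, 75.6 and 56.8 in WT, 92.4, 58.5, 108 and 118 in Trim24-/- and 93.6, 141, 90.4 and 103 in compound mutant livers of 5 weeks. Insig1, both a target and a brake of the SREBPs, read 835, 784, 791 and 643 in WT, 653, 367, 697 and 565 in Trim24-/- and 569.6, 490.3, 632 and 779 in compound mutant livers. liver_90WT and liver_6KO were lowest again, but for Insig1 liver_90WT was at 80.0% of its group's other livers.

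The same block appeared in liver_393WT at 14 weeks. Msmo1 read 1926, 1214, 2080.2, 2309 and 505 in WT livers of 14 weeks, and Sqle 293, 267, 304, 346 and 91.9. Insig1 read 798, 813, 780.2, 724 and 427. In each case liver_393WT lay well below the other 4, which were close to each other for Sqle and Insig1. In the Trim24-/- livers of 14 weeks Sqle read 204, 538, 513, 391.9 and 321 and Msmo1 1021, 1763, 2175, 1937 and 781; liver_395M was lowest for Msmo1 but not for Sqle.

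Other livers stood high. liver_2WT had the highest signal of its group for 12 of 16 sterol and 11 of 15 fatty acid genes, against 24.4% of all genes. At 14 weeks liver_464WT was highest for 10 of 16 and 11 of 15, against 20.0% of all genes. Among the Trim24-/- livers of that age liver_466M was highest for 10 of 16 sterol genes, a median of 0.55 (log2) above the others, and for 6 of 15 fatty acid genes, against 20.5%. liver_73R was highest of its group for 11 of 16 sterol genes (25.6% of all genes) and lowest for 8 of 15 fatty acid genes (30.4%). It was also highest for 9 of 10 fasting response genes and for 12 of 13 macrophage and Kupffer cell markers, and the part of either in its readings was not tested.

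**Figure D2:**
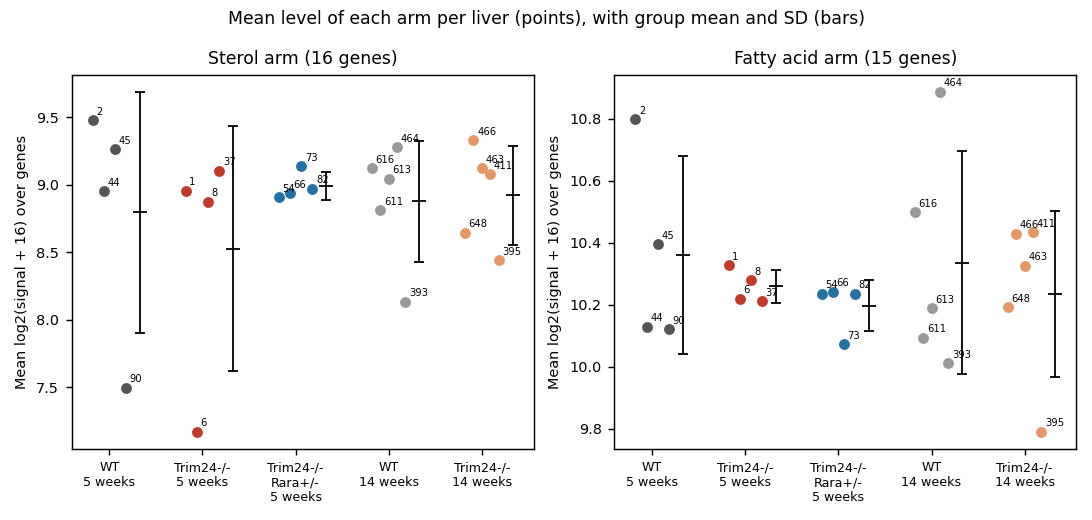
Points give each liver's mean log2(signal + 16) over the 16 sterol genes (left) and the 15 fatty acid genes (right), labelled by animal number, with the group mean and SD as bars beside them. On the left liver_90WT (7.50) and liver_6KO (7.17) lie below all other livers. On the right both lie within the range of the other livers of 5 weeks, of which liver_73R is lowest (10.07, against 10.12 for liver_90WT).

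Averaged over the 16 genes, the sterol arm was 8.80 ± 0.89 (SD, n = 4) in WT, 8.53 ± 0.91 (n = 4) in Trim24-/- and 8.99 ± 0.10 (n = 4) in compound mutant livers of 5 weeks, on the log2(signal + 16) scale. At 14 weeks it was 8.88 ± 0.45 (n = 5) in WT and 8.92 ± 0.37 (n = 5) in Trim24-/- livers. The groups overlapped at both ages. The fatty acid arm had means of 10.36 ± 0.32, 10.26 ± 0.05 and 10.20 ± 0.08 in the groups of 5 weeks and 10.34 ± 0.36 and 10.23 ± 0.27 at 14 weeks, again with overlap. Within groups of 5 weeks the SD of a sterol gene was 0.74 at the median and reached 1.22 for Msmo1, whereas a fatty acid gene had 0.35 at the median, and the 8334 brighter genes 0.20. At 14 weeks the medians were 0.43 for each arm and 0.21 for the brighter genes. In the comparisons at 5 weeks the standard error of a difference was accordingly 0.45 for the median sterol gene and 0.22 for the median fatty acid gene, against 0.15 over all genes.

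The fatty acid arm shared the block only in part. liver_90WT was lowest of its group for 9 of 15 fatty acid genes, against 29.2% of all genes. liver_6KO was lowest for 7 of 15 (27.9% of all genes) and highest for 6 of 15 (26.5%). The median fatty acid gene stood at 71.2% of the other livers in liver_90WT and at 82.7% in liver_6KO. liver_393WT was lowest for 4 of 15 (21.6% of all genes), with a median of 81.1%. liver_395M was lowest for 11 of 15 (19.1%), with a median of 70.3%, so in that liver both arms were low.

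Within the arm the genes split in liver_90WT and liver_6KO. Srebf1 read 2103 in liver_90WT, the highest of its group, and 1787 in liver_6KO. Fasn, the fatty acid synthase itself, read 3022, 959.7, 1489 and 1231 in WT and 1273, 1509.8, 1500.04 and 1255 in Trim24-/- livers of 5 weeks, and neither animal was lowest. Acly, which splits citrate into acetyl-CoA, and Acaca, which makes malonyl-CoA, were at 142% and 119.9% of the other Trim24-/- livers in liver_6KO, though at 61.4% and 75.2% in liver_90WT. By contrast Scd1, the delta-9 desaturase, read 12432, 10739.6, 11112 and 6059 in WT, 10716, 6417, 9783 and 11332 in Trim24-/- and 9624, 8596, 9373 and 9536 in compound mutant livers, lowest in liver_90WT and liver_6KO. Elovl5, an elongase of polyunsaturated fatty acids, was at 56.9% and 56.9% in those animals, and Me1, the malic enzyme that supplies NADPH, at 50.9% and 70.1%. Elovl6, which lengthens palmitate, was at 71.2% in liver_90WT but 189% in liver_6KO.

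Triglyceride and glucose-linked members stood on both sides of the other livers. Gpam and Dgat2, the first and last acyltransferases of triglyceride synthesis, were between 71.8% and 83.0% of the other livers. Thrsp, the lipogenic Spot 14 protein, and Pklr, liver pyruvate kinase, were between 63.0% and 82.7%. Mlxipl read 953, 757, 752 and 1593 in WT and 978, 1306, 988 and 714 in Trim24-/- livers of 5 weeks, highest in liver_90WT and liver_6KO. Pnpla3, a lipid droplet enzyme and SREBP-1c target, was dim, with 53.2, 17.7, 28.9 and 43.7 in WT and 15.5, 56.9, 15.7 and 25.3 in Trim24-/- livers, and readings this near the pseudocount carry little weight. Acacb, the mitochondrial acetyl-CoA carboxylase that limits fat oxidation, was lowest in liver_90WT and liver_6KO, at 53.0% and 50.9%.

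Genes of the same pathways outside the 31 members moved with them in these livers, but not all. Of 14 other sterol pathway genes listed, 10 were measured, and liver_90WT was lowest of its group for 7 of 10 and liver_6KO for 5 of 10; of 21 other fatty acid and triglyceride synthesis genes, 19 were measured, and the counts were 12 and 14 of 19. Over all genes the shares were 29.2% and 27.9%. Tm7sf2, a sterol reductase, read 518 in liver_90WT against 1813 to 2018 in the other WT livers, and 424 in liver_6KO against 1388 to 1514. Acss2, which makes acetyl-CoA from acetate, read 336 and 258, against 1286 to 2094 and 870.4 to 1507. Insig2, the other INSIG gene, went the other way, with 2019 in liver_90WT against 544 to 838, and 1392 in liver_6KO against 436 to 1332. The high end of the last range was liver_37KO, in which sterol genes were not low.

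Other cell types and states also differed in these livers. liver_90WT was highest of its group for 12 of 13 macrophage and Kupffer cell markers (25.3% of all genes), with a summed signal of 9345 against 4648 to 6000.5 in the other WT livers. liver_6KO summed to 9887, within the range of 6432 to 12760 of the other Trim24-/- livers, and was highest for 1 of 13 (26.5% of all genes). liver_395M was highest for 13 of 13 (27.4%), and liver_393WT for 2 of 13 (24.0%). None of the 13 markers was at 0, the lowest reading being 18.1 for Marco. Across groups of 5 weeks the summed level was 4648 to 9345 in WT, 6432 to 12760 in Trim24-/- and 6257 to 10230.7 in compound mutant livers. Of 8 hepatocyte markers liver_6KO was lowest for 6, against 27.9% of all genes, with a summed signal of 64848 against 72909 to 88151 in the other Trim24-/- livers. liver_90WT was lowest for 1 of 8. Of 12 circadian clock genes liver_90WT was lowest for 7, against 29.2% of all genes, and liver_6KO for 3. Of 10 fasting response genes liver_90WT and liver_6KO were each highest for 3, against 25.3% and 26.5% of all genes. liver_44WT and liver_37KO were each highest for 5 of 10, against 21.5% and 28.3%. By the mean log2 level of these genes, liver_90WT was highest of its group, at 9.52 against 8.61 to 9.29. liver_6KO, at 9.23, was narrowly above liver_37KO, at 9.20. liver_2WT had the lowest mean of its group and was lowest for 6 of 10, against 23.2% of all genes. liver_393WT also had the lowest mean of its group, 8.78 against 8.96 to 9.41, and liver_395M lay within the range of its group. Feeding state and time of death are not in the labels. The part of these differences in the sterol readings was not tested.

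Loss of Trim24 at 5 weeks was the first comparison. No member of either arm passed the test in limma (0 of 16 and 0 of 15, at a p-value under 0.05 after Benjamini-Hochberg adjustment), where 0.599% of all 18194 genes did. At an unadjusted p under 0.05 there was 1 gene in each arm, 2 of 31 in all, against 10.8% of all genes. The median difference, Trim24-/- minus WT, was -0.24 (log2) over the sterol arm and -0.06 over the fatty acid arm, against -0.01 over all genes. No member separated the 2 groups completely, where 5.52% of all genes did. Of the macrophage and Kupffer markers 1 of 13 passed, Mpeg1, a pore-forming protein of macrophages, at 1.69 ± 0.30 (adjusted p = 0.0275). Among the 13, 12 estimates were above 0, with a median of 0.37 against -0.01 over all genes. Without liver_90WT and liver_6KO Marco passed as well, at 1.13 (adjusted p = 0.0377). That fit leaves out liver_90WT, the highest WT liver for 12 of 13 of these markers, which lowers their WT mean. The part of these markers in the values of the members was not tested.

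The sterol genes with the smallest p were Insig1, Sqle and Lss. For Insig1, with the signals given above, the difference was -0.44 ± 0.19 (SE, 95% interval -0.86 to -0.03, adjusted p = 0.425). liver_6KO was lowest by far and the groups overlapped. For Sqle it was -0.82 ± 0.66 (-2.25 to 0.61, adjusted p = 0.714), and for Lss -0.33 ± 0.30 (-0.98 to 0.32, adjusted p = 0.754). For 7 of 16 sterol genes the 95% interval excluded a 2-fold difference in either direction, and for the other 9 it did not, so a difference of that size lies within their intervals.

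In the fatty acid arm Elovl5 had the smallest p. It read 6382, 5632, 5658 and 3351 in WT and 3683, 2206, 3423 and 4529 in Trim24-/- livers of 5 weeks. Apart from liver_90WT, the WT livers were above all Trim24-/- livers. The difference was -0.61 ± 0.23 (-1.09 to -0.12, adjusted p = 0.336), and its second probe set gave -0.64 ± 0.21. Me1 differed by -0.39 ± 0.21 (adjusted p = 0.546) and Thrsp by -0.37 ± 0.21 (adjusted p = 0.565). The interval excluded a 2-fold difference for 14 of 15 fatty acid genes, Elovl5 being the exception. Srebf1 read 1996, 921, 997 and 2103 in WT and 1843, 1787, 1841 and 1455 in Trim24-/- livers, a difference of 0.29 ± 0.26 (-0.26 to 0.85).

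Leaving out liver_90WT and liver_6KO left no member past the test (0 of 16 and 0 of 15), while 0.605% of all genes passed. Unadjusted p was then under 0.05 for 4 of 16 sterol genes and 2 of 15 fatty acid genes, against 12.7% of all genes. The sterol genes were Nsdhl (-0.66, adjusted p = 0.139), Cyp51 (-0.60), Sqle (-0.69) and Idi1 (-0.65), all lower in Trim24-/-, and the fatty acid genes Elovl5 (-0.61, adjusted p = 0.0885) and Me1 (-0.50, adjusted p = 0.122). The median sterol difference was -0.28 without both livers, but -0.60 without liver_90WT alone and 0.19 without liver_6KO alone, so its sign rested on which low liver was kept.

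**Figure D3:**
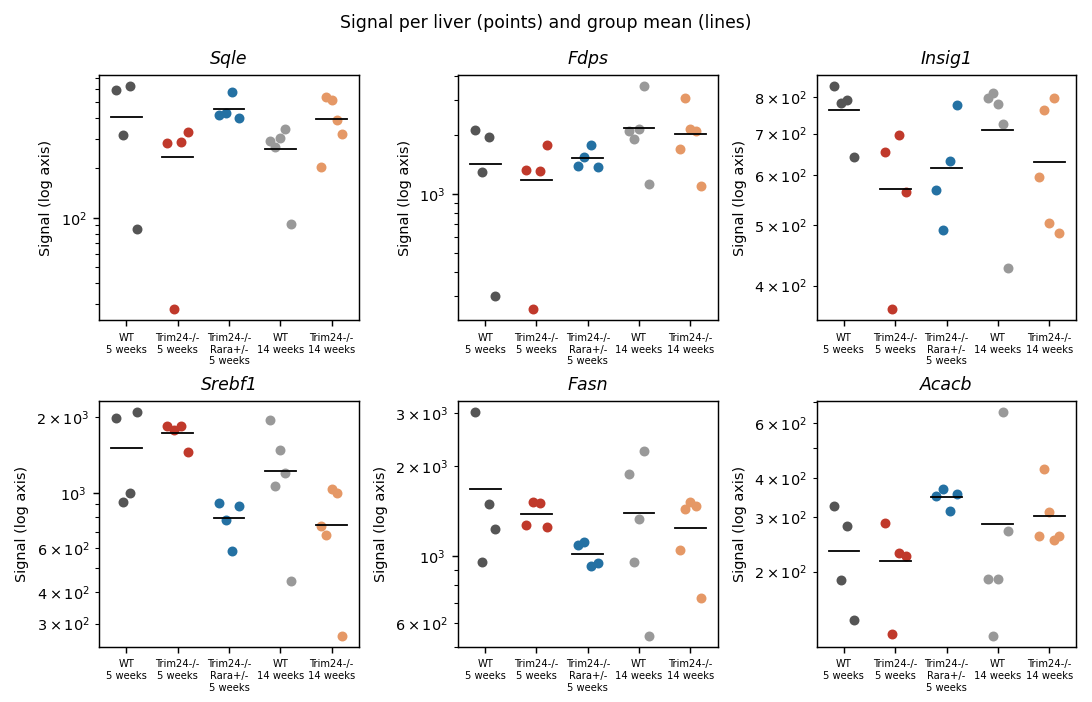
Points give the signal (log axis) of 6 genes in each liver by group, and lines the group means. Sqle and Fdps show single low livers in WT and Trim24-/- groups, Insig1 a smaller one, Srebf1 lies between 586 and 908 in the 4 compound mutants, and Acacb lies between 314 and 368 there.

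Removing 1 Rara allele on top of Trim24 was read against WT and against Trim24-/-, comparisons that share the compound mutant livers. Each also shares its control livers with the comparison above. Compared with WT, 0 of 16 sterol genes and 0 of 15 fatty acid genes passed in limma, where 0.055% of all genes did. At an unadjusted p under 0.05 there were 0 sterol and 4 fatty acid genes, against 7.44% of all genes. The median difference was 0.27 over the sterol arm and -0.14 over the fatty acid arm, against -0.02 over all genes. Compared with Trim24-/-, 0 of 16 and 0 of 15 passed, where 0.143% of all genes did, and 0 and 2 were under the unadjusted threshold, against 11.5%. The medians were 0.36 and -0.05, against -0.01.

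Srebf1 had the smallest p of the 31 members in both comparisons. It read 908, 777, 586 and 889 in the compound mutants, against the 921 to 2103 in WT and 1455 to 1843 in Trim24-/- livers. All 4 compound mutants lay below all 8 other livers of 5 weeks, by a narrow margin of 908 against 921 for liver_44WT. The groups did not overlap in either comparison, with the mutants lower, as held for 2.63% of all genes against WT and 5.13% against Trim24-/-. The difference was -0.84 ± 0.26 (-1.39 to -0.28, adjusted p = 0.421) from WT and -1.13 ± 0.26 (-1.68 to -0.58, adjusted p = 0.0993) from Trim24-/-, so neither passed the test over all genes. Over 23 alternative settings the difference from Trim24-/- ran from -1.26 to -0.996, with adjusted p between 0.0533 and 0.679 in limma, never past the threshold.

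Other lipogenic genes gave smaller differences. Fasn read 1089, 1118, 927 and 948 in the compound mutants, below all Trim24-/- livers, and differed by -0.43 ± 0.26 from Trim24-/- (adjusted p = 0.583) and -0.57 ± 0.26 from WT (adjusted p = 0.668). Pnpla3, at 10.4, 14.0, 15.3 and 22.1, differed by -0.68 ± 0.27 from WT (adjusted p = 0.593), near the floor of the arrays. Scd1 differed by -0.07 (-0.55 to 0.40) from WT and -0.01 (-0.49 to 0.46) from Trim24-/-, intervals that exclude a 2-fold change. Elovl6 and Acly differed by -0.22 and -0.31 from WT. Without liver_90WT and liver_6KO the differences from WT were -0.67 for Fasn, -0.60 for Pnpla3, -0.30 for Scd1, -0.47 for Acly and -0.31 for Elovl6. All but Elovl6 then had an unadjusted p under 0.05, with adjusted p = 0.606, 0.533, 0.477 and 0.606 in limma. In this comparison the removal changes the mean of the WT livers only, by taking out liver_90WT. Mlxipl, at 1130.04, 1276, 827 and 951, differed by 0.10 (-0.43 to 0.62) with all livers.

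Acacb lay on the other side. It read 349.6, 368, 314 and 355 in the compound mutants, 324, 188, 280.2 and 139.9 in WT and 287, 126, 229.7 and 225 in Trim24-/- livers. All compound mutants were above all Trim24-/- livers and above all WT livers but liver_2WT. The difference was 0.61 ± 0.25 from WT (adjusted p = 0.62) and 0.69 ± 0.25 from Trim24-/- (adjusted p = 0.297), and without liver_90WT and liver_6KO 0.40 and 0.47. Its second, much dimmer probe set gave -0.10 from WT and 0.01 from Trim24-/-. Me1, at 2439, 2298, 2300.1 and 2257 against 1899, 1336, 1972 and 1849 in Trim24-/- livers, differed by 0.41 ± 0.21 (adjusted p = 0.497), without overlap, but its second probe set gave -0.09 ± 0.25.

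Against Trim24-/- the sterol estimates were mostly above 0 while liver_6KO was kept, 15 of 16 of them, where 47.3% of all genes were. Among them the smallest p were those of Sqle (1.28 ± 0.66, -0.15 to 2.71, adjusted p = 0.497), Nsdhl (0.76 ± 0.49, adjusted p = 0.605) and Cyp51 (1.04 ± 0.70, adjusted p = 0.624). Sqle and Idi1 did not overlap between the groups; Idi1 differed by 0.97 ± 0.66, and by 1.18 ± 0.61 on its second probe set. In all, 6 of 31 members did not overlap, namely Idi1, Sqle, Acacb and Me1 on the higher side (3.33% of all genes) and Srebf1 and Fasn on the lower (5.13%). Without liver_90WT and liver_6KO 0 of 31 members passed and 2 of 16 sterol and 3 of 15 fatty acid genes had an unadjusted p under 0.05, where 0.28% and 12.4% of all genes did. The sterol median went from 0.36 to -0.01, 7 of 16 estimates were above 0, and Sqle differed by 0.56 (adjusted p = 0.313). With only liver_37KO left out the sterol median was 0.61.

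Against WT the sterol genes with the smallest p were Insig1 (-0.31 ± 0.19, adjusted p = 0.788), Srebf2 (0.29 ± 0.22, adjusted p = 0.831) and Dhcr7 (0.56 ± 0.44, adjusted p = 0.845). None separated the groups. Leaving out liver_90WT and liver_6KO turned the sterol median from 0.27 to -0.29, and left 0 of 31 members past the test, against 0.154% of all genes. Unadjusted p was then under 0.05 for 5 of 16 sterol and 7 of 15 fatty acid genes, against 8.13% of all genes, and all but Acacb of these 12 were lower in the compound mutants. They included Elovl5 (-0.45, adjusted p = 0.342), Scd1 (-0.30, adjusted p = 0.477), Srebf1 (-0.64, adjusted p = 0.559) and Insig1 (-0.39, adjusted p = 0.54). However, liver_90WT was the lowest WT liver for 16 of 16 sterol and 9 of 15 fatty acid genes, so its removal raises the WT mean of these genes. The removal also took the median standard error of a sterol gene from 0.45 to 0.18. The share of all genes is therefore not a fair baseline for these counts. Leaving out liver_2WT, the highest of its group, gave a sterol median of 0.46.

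**Figure D4:**
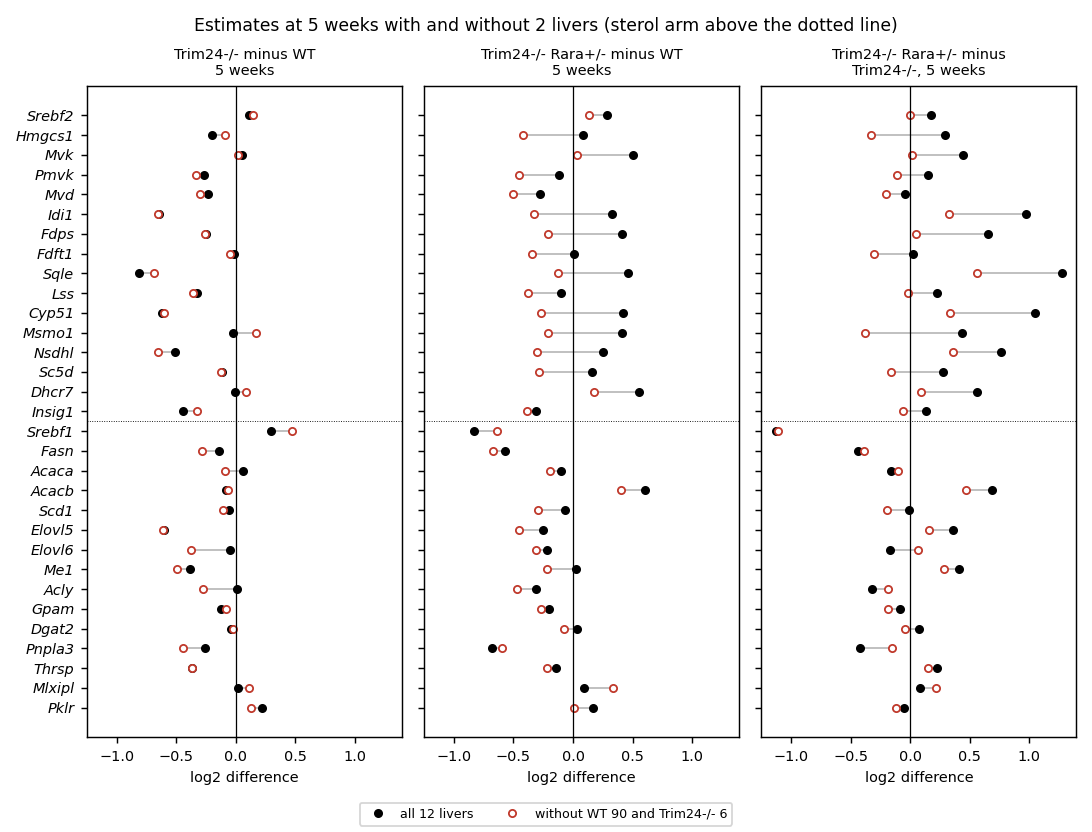
Each row gives a member's log2 difference in the 3 comparisons at 5 weeks, from all 12 livers (filled) and without liver_90WT and liver_6KO (open). In the middle and right panels most sterol estimates shift left when the livers are left out (medians 0.27 to -0.29 and 0.36 to -0.01), while Srebf1 stays below 0 in both.

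At 14 weeks the comparison of Trim24-/- with WT was repeated in other animals, all of which had the low Xist signal. Again 0 of 16 sterol and 0 of 15 fatty acid genes passed in limma, where 0.242% of all genes did, and 0 of 31 had an unadjusted p under 0.05, against 8.23% of all genes. The median difference was 0.03 over the sterol arm and -0.09 over the fatty acid arm, against 0.00 over all genes, and no member separated the groups, where 1.78% of all genes did. Intervals excluded a 2-fold difference for 15 of 16 sterol and 12 of 15 fatty acid genes.

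Srebf1 read 1949, 1067, 1477, 1195 and 444 in WT and 733, 677, 1038, 1002 and 269 in Trim24-/- livers of 14 weeks. The 4 highest readings were WT, but liver_393WT was below all Trim24-/- livers except liver_395M. The difference was -0.70 ± 0.41 (-1.59 to 0.20, adjusted p = 0.717), and without liver_393WT and liver_395M it was -0.70 (adjusted p = 0.4). In that fit too 0 of 31 members passed, and Srebf1 alone had an unadjusted p under 0.05, where 0.121% and 8.21% of all genes did. Elovl6 differed by 0.40 ± 0.25 (adjusted p = 0.73) and Elovl5 by -0.30 ± 0.19 (adjusted p = 0.744). Scd1 read 9753, 8451, 6937, 11686 and 7464 in WT and 8122, 8746, 6798, 8626 and 5986 in Trim24-/- livers and differed by -0.20 (-0.56 to 0.16).

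Among sterol genes Sqle had the smallest p, at 0.60 ± 0.34 (-0.13 to 1.34, adjusted p = 0.701), the opposite sign to that at 5 weeks. Without liver_393WT alone it was 0.29. Fdft1 differed by 0.31 ± 0.21 (adjusted p = 0.764) and Pmvk by -0.24 ± 0.20 (adjusted p = 0.816). Srebf2, at 135, 148, 125, 159.8 and 107 in WT and 127, 125, 128, 102 and 137 in Trim24-/- livers, differed by -0.10 (-0.37 to 0.16), and Insig1, at 596, 764, 504, 798 and 486 in Trim24-/- livers, by -0.16 (-0.60 to 0.28). The sterol median ran from -0.19 without liver_393WT to 0.18 without liver_395M, and was -0.08 without both. Of the macrophage and Kupffer markers 9 of 13 had an unadjusted p under 0.05 in this comparison, against 8.23% of all genes. All 13 estimates were above 0, with a median of 0.44 against 0.00 over all genes. Summed signals were 4196 to 5579 in WT and 4954 to 9234 in Trim24-/- livers. The part of these markers in the values above was not tested.

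**Figure D5:**
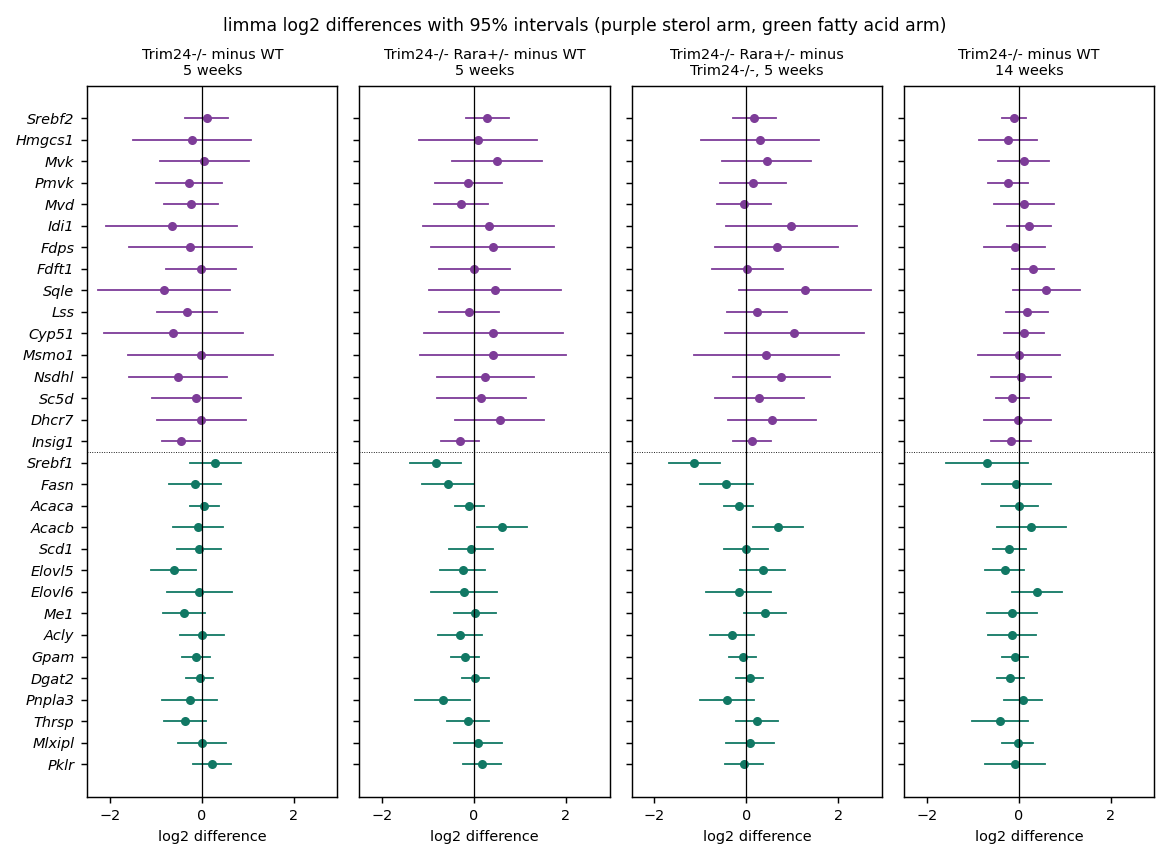
Points are limma's log2 differences for the 31 members in the 4 genotype comparisons, and lines their 95% intervals (purple sterol arm, green fatty acid arm). Sterol intervals are wide at 5 weeks and narrower at 14 weeks, and the interval of Srebf1 in the third panel (-1.68 to -0.58) is the farthest from 0.

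Whether the effect of Trim24 loss differed with age was tested as an interaction over all 22 arrays. Age cannot be told apart here from the sex pattern of the livers or the brightness of the arrays. In limma 0 of 16 and 0 of 15 members passed, where 0.033% of all genes did, and 0 of 31 had an unadjusted p under 0.05, against 6.39% of all genes. The median was 0.22 over the sterol arm and -0.04 over the fatty acid arm, against 0.00. Sqle had the largest estimate, 1.42 ± 0.77 (-0.19 to 3.03, adjusted p = 0.815), followed by Idi1 at 0.88 ± 0.72 (adjusted p = 0.903), with Lss at 0.51 (adjusted p = 0.887). Srebf1 stood at -0.99 ± 0.52 (-2.08 to 0.10, adjusted p = 0.806), Elovl6 at 0.45 and Pnpla3 at 0.36. Without liver_6KO the estimate for Sqle was 0.71, and without liver_90WT it was 2.00. Without both, 0 of 31 members passed and 3 of 16 sterol genes had an unadjusted p under 0.05, against 0.0495% and 7.28% of all genes.

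With all livers kept, the other genes of these pathways gave no call in the genotype comparisons. Of the 10 other sterol pathway genes and the 19 other fatty acid and triglyceride synthesis genes, 0 passed in limma in any of the 4. For Trim24-/- minus WT at 5 weeks their medians were -0.18 and -0.12, with 1 and 2 genes at an unadjusted p under 0.05, against 10.8% of all genes. For compound mutants minus WT they were -0.03 and 0.03, with 0 and 2 such genes (7.44% of all genes), and for compound mutants minus Trim24-/- 0.10 and 0.14, with 0 and 4 (11.5%). At 14 weeks they were -0.06 and -0.11, with 1 and 1 (8.23%).

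Elovl3, an elongase of very long saturated chains, was the exception without liver_90WT and liver_6KO. It read 194, 191, 172 and 174 in the compound mutants, 87.8, 93.7, 86.3 and 42.5 in WT and 84.6, 40.4, 87.6 and 76.2 in Trim24-/- livers of 5 weeks. All 4 compound mutants lay above all 8 other livers, whose lowest readings were those of liver_90WT and liver_6KO. With all livers it differed by 1.13 ± 0.22 from WT (adjusted p = 0.106) and 1.21 ± 0.22 from Trim24-/- (adjusted p = 0.0568). Without those livers it was higher in the compound mutants by 0.92 ± 0.10 (adjusted p = 0.00356) and 1.01 ± 0.10 (adjusted p = 0.0059) in limma, the only one of the 29 genes of both lists to pass there, where 0.154% and 0.28% of all genes did. Elovl3 was named after its values were seen. The livers left out, also chosen after the arrays were seen, held its lowest control readings. Their removal thus lowered its standard error from 0.22 to 0.10, and the p-values of that fit do not establish a difference.

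The WT livers of 14 and 5 weeks differed for 28.3% of all genes, and the age of the animals, their sex pattern and the brightness of the arrays cannot be told apart in this comparison. Of the members, 2 of 16 sterol genes and 1 of 15 fatty acid genes passed in limma, a smaller share than of all genes; 2 of the 3 were higher at 14 weeks, as were 19.7% of all genes, and 1 was lower, as were 8.63%. All genes had a median difference of 0.13, 14 weeks minus 5 weeks, against -0.06 for the sterol arm and -0.02 for the fatty acid arm. Mlxipl rose, from 953, 757, 752 and 1593 at 5 weeks to 1729, 1608, 1520.2, 2177 and 1542 at 14 weeks, with overlap only through liver_90WT, by 0.81 ± 0.21 (adjusted p = 0.00617). Srebf2 rose by 0.59 ± 0.18 (adjusted p = 0.0166), and its other probe set by 0.75. With each array centred on its median these became 0.56 (adjusted p = 0.0536) and 0.35 (adjusted p = 0.154), and neither passed; without liver_90WT Srebf2 differed by 0.44 (adjusted p = 0.0783).

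Fdft1 fell on the probe set used, from 1641, 1139, 1309 and 490.2 to 483, 309.6, 407, 417 and 242, with no overlap, as for 5.97% of all genes in this direction. The difference was -1.50 ± 0.31 (adjusted p = 0.00118). Its next probe set, almost as bright, differed by -0.18 ± 0.32, and with the mean of all its probe sets the gene differed by -0.38 (adjusted p = 0.0913), so the fall was that of 1 probe set; its other probe sets are dim. Without liver_90WT and liver_6KO, 5 of 16 sterol genes passed, where 24.3% of all genes did in either direction. Of these, 4 were lower at 14 weeks (Fdft1, Cyp51, Sc5d and Sqle, the last by -0.99) and Srebf2 was higher. This removal raises the WT mean at 5 weeks but keeps the low liver_393WT at 14 weeks, and 11 of 16 sterol estimates were below 0 (median -0.35). Without liver_393WT and liver_395M instead, 14 of 16 were above 0 (median 0.11, against 0.13 over all genes). In that fit 1 sterol gene passed as higher and 1 as lower, so the direction rested on which low liver was kept. Outside the members, Elovl3 read 42.5 to 93.7 at 5 weeks and 520.1 to 1608 at 14 weeks, a rise of 3.50 ± 0.29 (adjusted p = 6.72e-08). Of the 19 other fatty acid and triglyceride synthesis genes 3 passed as higher and 2 as lower, where 19.7% and 8.63% of all genes did. Elovl1 and Pgd, of the pentose phosphate route, fell by 0.84 and 0.80, and Slc25a1, the citrate carrier, rose by 0.65. Of the 10 other sterol pathway genes 2 passed, both lower (8.63% of all genes). These were Hsd17b7, a ketosteroid reductase, which fell by 0.54, and Mbtps2, a protease that releases the SREBPs, by 0.53. Of 13 macrophage and Kupffer markers 3 passed, all lower (8.63% of all genes), with Csf1r, Vsig4 and Marco down by 0.77, 0.93 and 0.83. Of 8 hepatocyte markers 1 passed, Cps1, of the urea cycle, which fell by 0.36. The part of these genes in the values of the members was not tested.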

How the data were processed

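RNA of 22 mouse livers was measured on 1 Affymetrix expression array per animal, after labelling with 2 rounds of amplification, per the labels' protocols. The authors deposited linear signal intensities for 45101 probe sets. The software that made them was not given in the sources used here. On every array the mean intensity after trimming 2% of the values at each end was 100.001, so the deposited values are scaled to a common level. Signals ran from 0.0191 to 17200.2. No pair of arrays held identical values. The number of animals, not read depth, limits the precision.

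Groups were taken from the labels. Intensities were used as deposited, as log2(signal + 16), with no further normalization. Of the probe sets, 34958 had 1 gene symbol in the platform annotation, 932 had several and 9211 were not listed. The probe set with the highest mean stood for each of 18194 genes, and 22 of the 31 members had several. Differences were fitted with lmFit and eBayes in limma 3.58.1 (R 4.3.3, with the package data.table, version 1.17.8), on the 12 arrays of 5 weeks, the 10 of 14 weeks, or all 22 for the interaction and the WT ages. P-values were adjusted over all genes by Benjamini-Hochberg, with 0.05 as the threshold. The test was checked on simulated data in which each gene varied independently, so a liver low for a whole block of genes was not imitated. Depending on the comparison, 53% (interaction) to 85% of 2-fold changes and 10.6% (interaction) to 37.6% of 1.5-fold changes were found. The changed genes were drawn from all 18194, so these rates do not hold for the members. At 5 weeks the median standard error was 0.45 in the sterol arm and 0.22 in the fatty acid arm, against 0.15 over all genes. False calls were 3.14% to 7.39% of the calls.

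The members and lists were chosen with earlier results of these data known. Described in full are members past the threshold, otherwise the 3 per arm with the smallest p, with Srebf1, Srebf2, Insig1, Mlxipl and Scd1 throughout, up to 4 called genes of each other list, and Trim24 and Rara. Other members and genes were singled out after their values were seen. Alternatives were quantile normalization, median centring, pseudocounts of 1 and 64, genes above median brightness, the mean of all probe sets, a trended variance, other arrays in the fit and leaving out each array. Added after the arrays were seen were the removal of liver_90WT and liver_6KO, the removal of liver_393WT and liver_395M, and averaging of the animals that resembled each other.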

Additional observations from a re-analysis of the deposited data

Results flagged for a closer look

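In 18 of 165 sets of values examined (10.9%), where chance gives about 1 in 20, the lowest liver of a group was separated from the others by most of the group's range on the log2(signal + 16) scale. In liver_6KO of 5 weeks these were the sterol genes Mvk (5.06), Idi1 (6.87), Fdps (8.09), Sqle (5.46), Cyp51 (5.98), Msmo1 (7.38) and Sc5d (10.04), the mean of the sterol arm (7.17) and the fatty acid gene Me1 (10.40). liver_90WT was singled out for Mvk (4.90) alone. In liver_393WT of 14 weeks they were Sqle (6.75), Cyp51 (7.89) and Insig1 (8.79), and in liver_395M Pmvk (6.98) and Sc5d (10.85). Among fatty acid genes Srebf1 was lowest in liver_37KO (10.52), a small gap in a tight group, and liver_73R was lowest for Elovl6 (9.15) and for the mean of the arm (10.07). These sets share livers and are not independent. No member differed between the ages in its Trim24-/- effect by the interaction test, and none had all its animals on opposite sides at the 2 ages.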

How the results depend on the processing

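In the genotype comparisons and the interaction, 0 of 16 sterol and 0 of 15 fatty acid genes passed under every alternative run. For the WT ages, the count of fatty acid genes was 2 with quantile normalization and 0 with median centring, and the count of sterol genes was 1 with median centring, 1 with the mean of all probe sets and 5 without liver_90WT and liver_6KO. Leaving out single arrays gave 1 (without liver_90WT) to 2 sterol genes. Calls lost were Mlxipl (0.56, adjusted p = 0.0536) and Srebf2 (0.35, adjusted p = 0.154) with median centring, Srebf2 without liver_90WT (0.44, adjusted p = 0.0783) and Fdft1 with the mean of its probe sets (-0.38, adjusted p = 0.0913). The cause was not tested, except that Fdft1's probe sets differ. No called value changed sign.

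Single livers moved the medians of the sterol arm across 0: -0.60 to 0.19 for Trim24-/- minus WT at 5 weeks, -0.29 to 0.46 for compound mutants minus WT, -0.01 to 0.61 for compound mutants minus Trim24-/-, -0.19 to 0.18 at 14 weeks and -0.11 to 0.62 for the interaction. The medians of the fatty acid arm crossed 0 as well. In the same order they ran from -0.18 to 0.06, -0.27 to 0.02, -0.10 to 0.03, -0.19 to 0.06 and -0.18 to 0.09. Genes near the pseudocount (Pnpla3, and Mvk in liver_90WT and liver_6KO) have understated differences. No paired analysis was made, because each liver came from a different animal and the sample titles link no animals of different groups.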

Other observations

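Gene groups linked to the synthesis routes gave no call in limma in the genotype comparisons with all livers kept. Of 8 genes of sterol efflux and the liver X receptors, 10 fasting response genes, 12 circadian clock genes, 8 hepatocyte markers and 6 adipocyte markers, 0 passed in any of the 4. At an unadjusted p under 0.05 there were 0, 0, 2, 0 and 1 of them for Trim24-/- minus WT at 5 weeks, against 10.8% of all genes, and 2, 4, 1, 1 and 1 at 14 weeks, against 8.23%, with medians at 14 weeks of -0.17, -0.18, 0.05, -0.14 and -0.13. For compound mutants minus WT there were 0, 0, 1, 0 and 0 (7.44% of all genes), and for compound mutants minus Trim24-/- 0, 2, 2, 1 and 0 (11.5%). The fasting and hepatocyte lists share a gene, which is counted in both. Its estimate was the largest of either list in these comparisons, at 0.50 from WT and 0.80 from Trim24-/-. The fasting response genes had a median of 0.26 in both of these comparisons, which share the compound mutant livers, and liver_73R was highest of its group for 9 of 10 of them, against 25.6% of all genes.

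Between the WT ages, 6 of 12 clock genes passed, 3 in each direction, where 28.3% of all genes passed, 19.7% higher and 8.63% lower. At 14 weeks Nr1d1, a clock repressor, was higher by 1.33, Per1 by 0.92 and Tef by 0.59, and Nr1d2 was lower, at -0.53. Of the 8 genes of sterol efflux and the liver X receptors 2 passed, both lower (8.63% of all genes). Abca1, the sterol efflux pump, and Lpcat3, a phospholipid acyltransferase, fell by 0.49 and 0.56. Time of death is not in the labels, so its part in these values was not tested.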
